A study of Homo sapiens with 6 samples.

Results

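The genes described here are the FOXO factors FOXO1, FOXO3 and FOXO4 and 7 genes that FOXO factors are known to induce: CITED2, CCNG2, TXNIP, KLF2, PIK3IP1, FBXO32 and CDKN1B. They were taken by symbol, matched to the Ensembl identifiers of the deposited tables, and are 10 of the 61498 genes measured. All 10 matched and all 10 passed the filter on low counts. RNA-seq after removal of ribosomal RNA was carried out on 3 untreated human cell lines, with 2 libraries per line. RPMI-8226 is a plasma cell myeloma line, RPMI-8226-R was derived from it and withstands the proteasome inhibitor bortezomib, and NCI-BL2171 carries the label of B lymphocytes. The labels do not say how the resistant line was selected or whether it is a clone. They also leave unsaid whether replicate libraries were grown as separate cultures, and p-values then measure a spread between libraries that may be technical alone.

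The label of NCI-BL2171 was checked against cell type markers. Its libraries held 60162 to 62683 TPM (the authors' length-scaled level, normalised to the same total in every library) summed over 12 erythroid markers and 5.58 to 5.61 TPM over 8 B cell markers, with MS4A1 and PAX5 at 0, and they are called the libraries labelled NCI-BL2171. In RPMI-8226 and RPMI-8226-R there were 3094 to 3231 and 4443 to 4570 TPM of 8 plasma cell markers, and no read of the erythroid genes ALAS2 and GATA1. Their summed erythroid markers were 116 TPM in both RPMI-8226 libraries and 244 to 261 TPM in RPMI-8226-R, where HBA1 stood at 97.0 ± 8.39 against 24.1 ± 3.11 TPM. The summed B cell markers were 5455 to 5614 TPM in RPMI-8226 and 134 to 140.5 TPM in RPMI-8226-R, where MS4A1 and CD22 were at 0. Nearly all of both sums was CD74, at 5520 ± 113 and 137 ± 4.36 TPM (SD, n = 2), and PAX5 stood at 0.0825 ± 0.0276 and 0.278 ± 0.0375 TPM. Summed T cell and myeloid markers were at most 6.71 and 53.1 TPM in any library, highest in those labelled NCI-BL2171. The part of these marker differences in the results below was not tested. In bulk RNA, fewer cells of a type and less RNA per cell cannot be told apart.

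FOXO factors are forkhead transcription factors that sit at the end of the PI3K-AKT pathway. When PI3K is active, AKT and the related SGK kinases phosphorylate them, 14-3-3 proteins bind them, and they are carried out of the nucleus and kept from DNA. When the pathway is quiet they enter the nucleus and switch on genes of cell cycle arrest, autophagy, protein breakdown and stress resistance. In B cells they are also known for genes of receptor rearrangement and lymphocyte homing. Much of this control acts on the proteins, and mRNA levels do not report where a FOXO protein is.

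The DNA letters that forkhead factors prefer were looked for in the promoters, because the 10 genes are grouped by this factor family. RefSeq start sites (GRCh38.p14) gave 16 promoter windows for 9 of the 10 genes, all but FBXO32, each running from 250 bases before the start to 50 bases after it. The forkhead motif GTAAACA, or TGTTTAC on the other strand, stood in windows of 3 genes: TXNIP, PIK3IP1 and FOXO4. Of all 27305 genes with a window 4.19% had it. The E-box CACGTG, which reads the same on both strands and is bound by basic helix-loop-helix factors, stood in windows of CCNG2 and CITED2, and in windows of 8.77% of all genes. The sequences below show the 3 forkhead matches and the 2 E-box matches in their surroundings, 5′ to 3′ on the strand of the gene, with the motif in capitals. Starts here are those of the RefSeq windows that hold the match. They lie 21 to 56 bases from the GENCODE 29 gene starts used further below, except for FOXO4, whose RefSeq start lies 346 bases before the GENCODE one. TXNIP, PIK3IP1 and CITED2 also have RefSeq windows without these matches, for PIK3IP1 the one whose start is the GENCODE gene start.
TXNIP (chr1:145996630-145996779, minus strand, from 200 to 51 bases before the start): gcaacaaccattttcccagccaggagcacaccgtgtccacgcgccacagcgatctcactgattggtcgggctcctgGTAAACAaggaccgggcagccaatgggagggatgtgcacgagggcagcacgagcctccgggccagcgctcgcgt
PIK3IP1 (chr22:31292456-31292482, minus strand, from 7 to 33 bases after the start): aaagagaggcTGTTTACcagaacagca
FOXO4 (chrX:71095864-71095890, plus strand, from 14 to 40 bases after the start): ccggcgagtgGTAAACAgagacgtcag
CCNG2 (chr4:77157107-77157206, plus strand, from 100 to 1 bases before the start): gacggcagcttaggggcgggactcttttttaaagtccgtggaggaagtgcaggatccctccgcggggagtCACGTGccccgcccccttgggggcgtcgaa
CITED2 (chr6:139374749-139374848, minus strand, from 200 to 101 bases before the start): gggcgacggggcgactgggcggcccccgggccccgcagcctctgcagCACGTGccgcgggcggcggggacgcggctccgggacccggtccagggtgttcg

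The shorter forkhead core TAAACA, which is contained in GTAAACA, stood in windows of 5 of the 9 genes, adding CDKN1B and FOXO3, and of 14.7% of all genes. The variant CAAAACA stood in 0 of them, against 6.05% of all genes. A match is a description of the letters in these windows. Of the 3 genes with a full forkhead match, PIK3IP1 differed 9.67-fold between RPMI-8226-R and RPMI-8226, FOXO4 2.00-fold and TXNIP 1.53-fold. Genes with a window and no full match ranged from 1.12-fold (FOXO1, not called) to 7.49-fold (CCNG2). A link between motif and change was not tested.

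Levels are given as TMM-normalised CPM (counts scaled to a common library total), first for each library and then as a log2 fold change ± SE, and compare lines within a gene. Calls are from edgeR's quasi-likelihood test over 20081 genes, adjusted by the Benjamini-Hochberg method at 0.05. The 3 comparisons share libraries pairwise, so that their values for a gene are not independent of each other. The central comparison, RPMI-8226-R against RPMI-8226, asks how the bortezomib-resistant cells differ from their parent.

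In RPMI-8226-R, 8 of the 10 genes were lower than in RPMI-8226, 1 was higher and 1 did not pass the test. The falls were largest for FBXO32, PIK3IP1 and CCNG2, at 15.2-fold, 9.67-fold and 7.49-fold. FOXO3, KLF2 and FOXO4 fell by 2.75-fold, 2.32-fold and 2.00-fold, and TXNIP and CDKN1B by 1.53-fold and 1.33-fold. CITED2 was 1.14-fold higher. Across all genes tested 65.6% were called in this comparison, 37.2% as lower and 28.5% as higher, so that a call alone says little in lines that differ so widely. The median log2 fold change of the 10 genes was -1.11, against -0.12 for all genes. A fall of at least 2-fold was seen in 21.5% of all genes and in 5 of the 10, with FOXO4 just short of it. The libraries of both lines did not overlap in CPM for any of the 10, as for 80.6% of all genes.

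**Figure D1:**
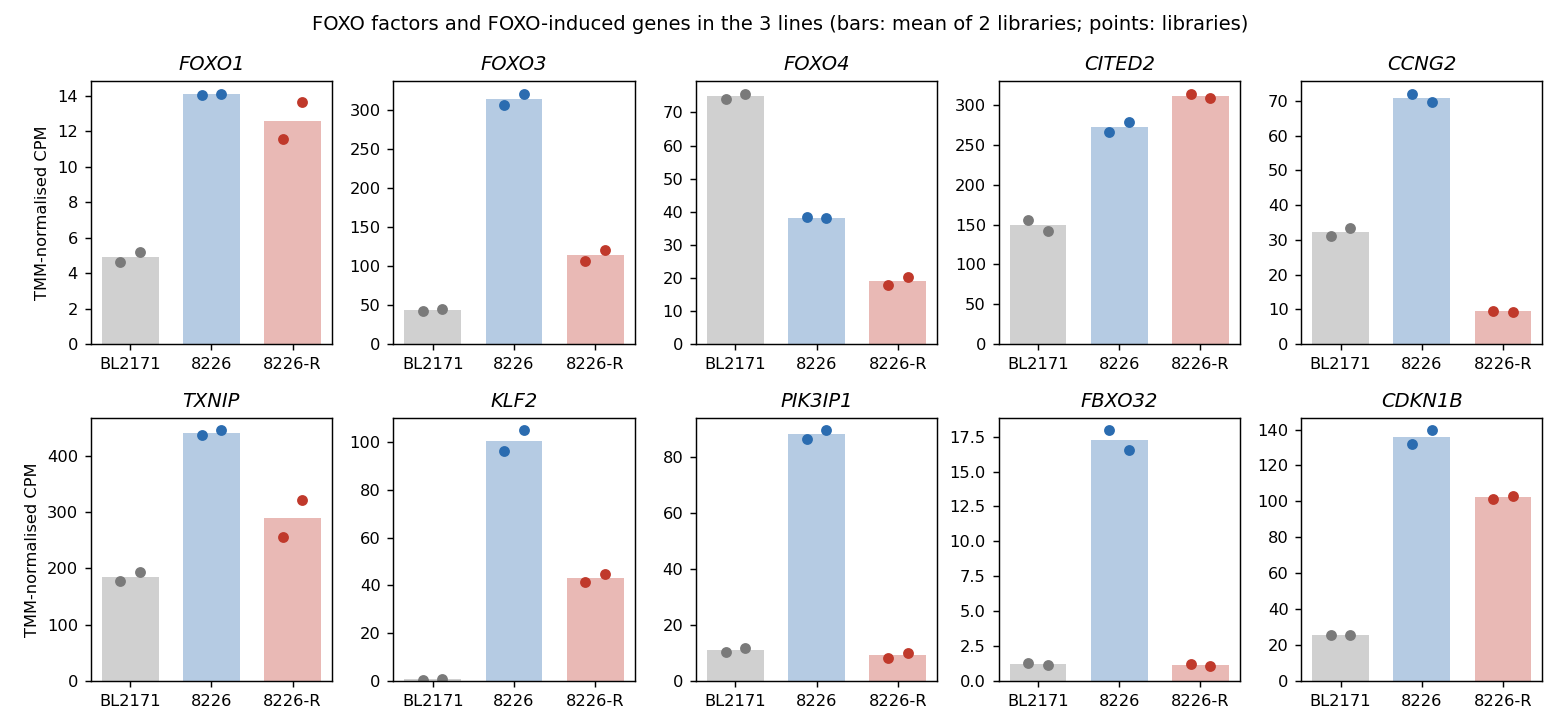
TMM-normalised CPM of the 10 genes in each line, with bars for the mean of 2 libraries and points for the libraries, each panel on its own axis from 0. RPMI-8226 had the highest mean for 8 genes, the libraries labelled NCI-BL2171 for FOXO4 and RPMI-8226-R for CITED2.

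The factors themselves were measured first. FOXO3 (ENSG00000118689.15; chromosome 6, 108559835 to 108684774, GRCh38) had 306 and 321 CPM in RPMI-8226, 107 and 121 in RPMI-8226-R, and 42.2 and 45.4 in the libraries labelled NCI-BL2171. The lines were well apart, with the resistant line between the others. FOXO3 fell by 1.46 ± 0.07 on the log2 scale in RPMI-8226-R against RPMI-8226 (edgeR adjusted p = 1.6e-13). It stood 7.17-fold higher in RPMI-8226 than in the libraries labelled NCI-BL2171 (log2 fold change 2.84 ± 0.08), and 2.61-fold higher in RPMI-8226-R than in them. FOXO3 shares nearly identical sequence with FOXO3B, an expressed copy at another locus that went from 38.6 to 14.3 CPM, and how reads were divided between the copies is not known.

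FOXO4, the X-linked factor (ENSG00000184481.17; chromosome X, 71096197 to 71103535), ran in another order. It had 74.1 and 75.7 CPM in the libraries labelled NCI-BL2171, 38.4 and 38.1 in RPMI-8226, and 18.0 and 20.2 in RPMI-8226-R. No other of the 10 genes was highest in the libraries labelled NCI-BL2171. The fall from RPMI-8226 to RPMI-8226-R was -1.0 ± 0.09 (edgeR adjusted p = 2.1e-09), and that from the libraries labelled NCI-BL2171 to RPMI-8226 was -0.97 ± 0.08. RPMI-8226-R stood 3.92-fold below the libraries labelled NCI-BL2171.

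FOXO1, the factor best known from B cell development (ENSG00000150907.10; chromosome 13, 40469953 to 40666597), was the scarcest of the factors. Its level was 4.62 and 5.20 CPM in the libraries labelled NCI-BL2171, 14.1 and 14.1 in RPMI-8226, and 11.5 and 13.6 in RPMI-8226-R. Both myeloma lines lay above the libraries labelled NCI-BL2171, by 2.87-fold and 2.57-fold, the former a log2 fold change of 1.52 that was 0.75 on log2(TPM + 1). Between RPMI-8226-R and RPMI-8226 the log2 difference was -0.16 ± 0.14, with a 95% interval from -0.45 to 0.13 (edgeR adjusted p = 0.322), although the libraries did not overlap in CPM. In TPM, which divides by length and by the total of all transcripts, the order turned, with 2.17 and 2.09 TPM in RPMI-8226 and 2.19 and 2.75 in RPMI-8226-R.

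The makeup of the mRNA pool of FOXO1, FOXO3 and FOXO4, which leaves out FOXO6, differed between lines, as the plot of stacked levels shows. Per length, the 3 factors summed to 47.2 ± 0.868 TPM in RPMI-8226, 26.0 ± 2.96 TPM in RPMI-8226-R and 28.6 ± 0.194 TPM in the libraries labelled NCI-BL2171 (SD, n = 2). FOXO3 made up 76.2% ± 1.67 of the sum in RPMI-8226 and 65.5% ± 1.23 in RPMI-8226-R, but 20.5% ± 1.63 in the libraries labelled NCI-BL2171. There FOXO4 made up 76.5% ± 1.95, against 19.3% ± 1.63 in RPMI-8226 and 25.03% ± 1.67 in RPMI-8226-R. FOXO1 had 4.51% ± 0.0369 of the pool in RPMI-8226 and 9.46% ± 0.445 in RPMI-8226-R. Both myeloma lines were thus led by FOXO3 and the libraries labelled NCI-BL2171 by FOXO4. The pool of the resistant line, at 23.9 and 28.1 TPM, was smaller than that of its parent. Both values lay below the 28.7 and 28.5 TPM of the libraries labelled NCI-BL2171, but only the second was close to them.

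**Figure D2:**
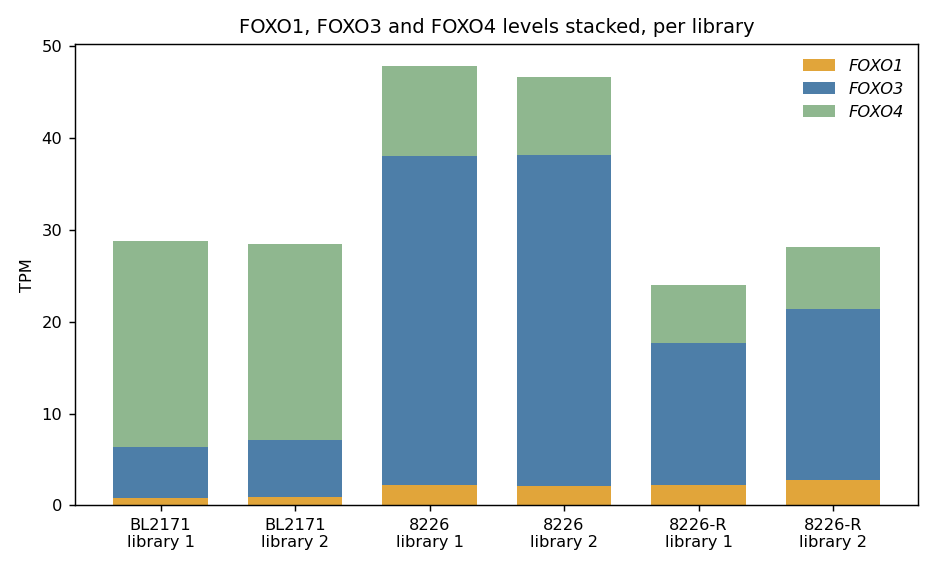
TPM of FOXO1, FOXO3 and FOXO4 stacked for each of the 6 libraries, on a linear axis from 0. FOXO3 forms most of the bar in the 4 myeloma libraries and FOXO4 in both libraries labelled NCI-BL2171.

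FOXO6, the remaining FOXO gene, fell 1.45-fold, from 14.8 ± 1.66 to 10.2 ± 1.08 CPM (SD, n = 2), and stood at 1.51 ± 0.199 CPM in the libraries labelled NCI-BL2171. Per length it had 4.93 ± 0.699 and 4.55 ± 0.603 TPM in these myeloma lines, above FOXO1 in both. For each factor the 3 protein-coding genes with the most similar profile were sought among 8788 genes whose mean level reached 5 TPM, by the Euclidean distance between centred log2 CPM profiles over the 6 libraries. CDK9, TMEM268 and GLG1 lay nearest to FOXO1, at 0.102, 0.132 and 0.145 log2 units. ETV5, EFNB1 and NPC2 lay nearest to FOXO3, at 0.175, 0.273 and 0.323, and WDFY1, NT5C3B and CALU nearest to FOXO4, at 0.127, 0.131 and 0.139. With 3 lines, such a profile has few degrees of freedom and many genes come close to it.

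Of the induced genes, CCNG2 and CDKN1B act as brakes on the cell cycle. CCNG2 encodes cyclin G2, an atypical cyclin found in cells that leave the cycle (ENSG00000138764.15; chromosome 4, 77157151 to 77433388). It had 72.1 and 69.6 CPM in RPMI-8226, 9.64 and 9.28 in RPMI-8226-R, and 31.0 and 33.3 in the libraries labelled NCI-BL2171. Replicates lay close together, and the resistant line was the lowest of the 3. CCNG2 fell by 2.90 ± 0.09 against RPMI-8226 (edgeR adjusted p = 2.6e-16), or 2.22 on log2(TPM + 1), and by 1.76 ± 0.10 against the libraries labelled NCI-BL2171, whereas RPMI-8226 was 2.20-fold above them.

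CDKN1B encodes p27, which inhibits cyclin E-CDK2 (ENSG00000111276.12; chromosome 12, 12715058 to 12722371). Levels of 132 and 139.6 CPM in RPMI-8226 compared with 101 and 103 in RPMI-8226-R and 25.4 and 25.6 in the libraries labelled NCI-BL2171. The myeloma lines were close to each other and far above the third group. The difference between them was -0.41 ± 0.07 (edgeR adjusted p = 1.6e-05), against 2.41 ± 0.07 for RPMI-8226 over the libraries labelled NCI-BL2171 and 2.01 ± 0.07 for RPMI-8226-R over them. In TPM the libraries of RPMI-8226 (47.0 and 49.6) and of RPMI-8226-R (44.7 and 48.5) overlapped, and the log2(TPM + 1) difference of -0.05 did not pass (limma adjusted p = 0.642).

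PIK3IP1 is a membrane protein that inhibits the catalytic subunit of PI3K, upstream of the FOXO factors (ENSG00000100100.13; chromosome 22, 31281593 to 31292534). It had 86.6 and 89.6 CPM in RPMI-8226, 8.20 and 9.98 in RPMI-8226-R, and 10.4 and 11.6 in the libraries labelled NCI-BL2171. Only RPMI-8226 was high. Its log2 fold change in RPMI-8226-R against RPMI-8226 was -3.27 ± 0.10 (edgeR adjusted p = 1.8e-16). RPMI-8226-R lay 1.21-fold below the libraries labelled NCI-BL2171 (-0.27 ± 0.12, edgeR adjusted p = 0.0398), a call that was lost under 9 of 16 alternative settings. The antisense gene PIK3IP1-DT, which overlaps it, had at most 17 reads in any library.

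FBXO32 showed the same outline at a lower level. It encodes atrogin-1, the substrate receptor of a ubiquitin ligase known from muscle wasting (ENSG00000156804.7; chromosome 8, 123497889 to 123541206). Its 18.0 and 16.6 CPM in RPMI-8226 rested on 483 and 419 reads, whereas RPMI-8226-R had 1.19 and 1.07 CPM (32 and 31 reads) and the libraries labelled NCI-BL2171 1.28 and 1.13 CPM (35 and 28 reads). The gene was high in RPMI-8226 alone. FBXO32 fell by 3.93 ± 0.20 in RPMI-8226-R (edgeR adjusted p = 5.7e-13), and by 2.57 on log2(TPM + 1) and 3.32 on log2(TPM + 0.1). Its rise in RPMI-8226 over the libraries labelled NCI-BL2171, 3.83 ± 0.21, was 2.38 and 3.03 on those scales. Between RPMI-8226-R and the libraries labelled NCI-BL2171 the libraries overlapped, and the log2 difference of -0.10 ± 0.27 had a 95% interval from -0.67 to 0.47 (edgeR adjusted p = 0.756).

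KLF2 is a zinc finger factor of lymphocyte quiescence and homing (ENSG00000127528.6; chromosome 19, 16324817 to 16327874). It had 96.2 and 105 CPM in RPMI-8226 and 41.6 and 44.9 in RPMI-8226-R. The libraries labelled NCI-BL2171 had 10 and 22 reads of it, or 0.367 and 0.886 CPM, and were the lowest by far. KLF2 fell by 1.22 ± 0.09 from RPMI-8226 to RPMI-8226-R (edgeR adjusted p = 3.7e-10). It was 162-fold higher in RPMI-8226 than in the libraries labelled NCI-BL2171 (95% interval from 128 to 206) and 69.9-fold higher in RPMI-8226-R. The effective length given for KLF2 was 2755 to 2835 bases in the libraries labelled NCI-BL2171 and 1112 to 1206 bases in the others. With an effective-length offset the log2 fold changes over the libraries labelled NCI-BL2171 rose from 7.34 to 8.57 in RPMI-8226 and from 6.13 to 7.43 in RPMI-8226-R, and on log2(TPM + 1) they were 5.87 and 5.07 (7.05 in RPMI-8226-R on log2(TPM + 0.1)). Without NCI-BL2171 replicate 2, which had the larger number of reads, they were 8.07 and 6.86. The size of this fold depends on the setting, while its direction and call were the same in all 16 alternatives.

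TXNIP, an arrestin that binds thioredoxin and limits glucose uptake, was among the most abundant of the 10 (ENSG00000265972.6; chromosome 1, 145992435 to 145996600). Its level was 438 and 446 CPM in RPMI-8226, 256 and 322 in RPMI-8226-R, and 177 and 193 in the libraries labelled NCI-BL2171. The 2 libraries of RPMI-8226-R were 1.26-fold apart, the widest gap of any of the 10 genes within a myeloma line. TXNIP fell by 0.61 ± 0.09 in RPMI-8226-R (edgeR adjusted p = 3.5e-05). In TPM its libraries in RPMI-8226-R (113 and 158) spanned those of RPMI-8226 (158 and 156), and the log2(TPM + 1) difference of -0.23 did not pass (limma adjusted p = 0.257).

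CITED2, which binds the coactivators CBP and p300 and restrains HIF-1, was the exception in direction (ENSG00000164442.10; chromosome 6, 139371807 to 139374620). It had 266 and 279 CPM in RPMI-8226, 314 and 309 in RPMI-8226-R, and 156 and 142 in the libraries labelled NCI-BL2171. The resistant line was the highest of the 3, by a small margin over its parent. The rise over RPMI-8226 was 0.19 ± 0.06 (edgeR adjusted p = 0.0106). With upper quartile scaling it was 0.13, with an effective-length offset 0.15 and without RPMI-8226 replicate 1 0.16, none of which passed.

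**Figure D3:**
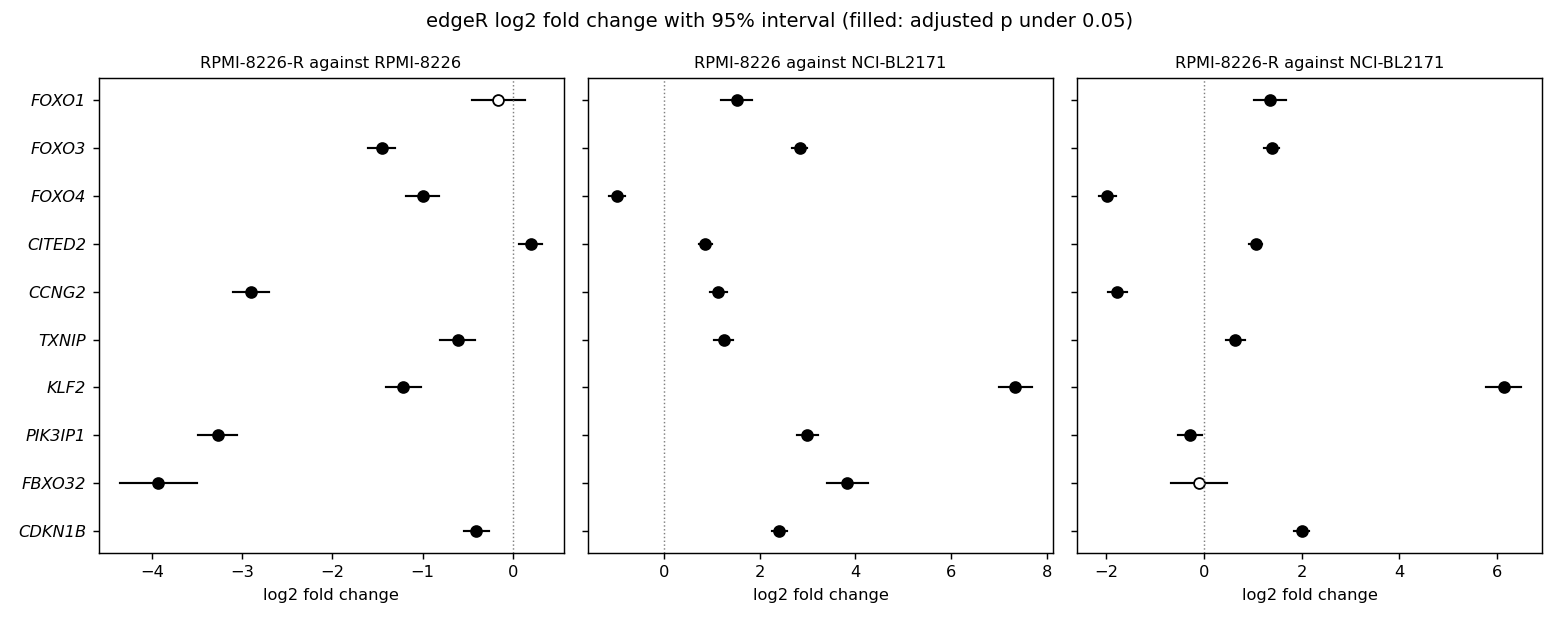
The log2 fold change of each gene with its 95% interval in the 3 comparisons, filled where the edgeR adjusted p was under 0.05. In RPMI-8226-R against RPMI-8226 8 genes lie left of 0 with filled points, and in RPMI-8226 against the libraries labelled NCI-BL2171 9 lie right of 0.

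RPMI-8226 against the libraries labelled NCI-BL2171 compares the parental line with the group whose markers go against its label. Here 9 of the 10 genes were higher in RPMI-8226 and FOXO4 was 1.96-fold lower, and 76.7% of all genes were called, 41.1% as higher. The median of the 10 was 1.97, against 0.09 for all genes. KLF2, FBXO32, PIK3IP1 and FOXO3 rose most, by 162-fold, 14.2-fold, 8.0-fold and 7.17-fold. CDKN1B rose 5.32-fold, FOXO1 2.87-fold, TXNIP 2.38-fold, CCNG2 2.20-fold and CITED2 1.83-fold. A rise of at least 2-fold was called in 28.0% of all genes and in 8 of the 10, and a fall of that size in 20.7% of all genes and in 0 of the 10. The libraries did not overlap for any of the 10, as for 88.4% of all genes.

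RPMI-8226-R against the libraries labelled NCI-BL2171 gave a mixed outcome. Of the 10 genes 6 rose and 3 fell, while FBXO32 did not pass. Across all genes 77.4% were called, 39.2% as higher and 38.2% as lower. KLF2, CDKN1B, FOXO3, FOXO1, CITED2 and TXNIP were the genes that rose, TXNIP least at 1.56-fold, and FOXO4, CCNG2 and PIK3IP1 those that fell. A rise of at least 2-fold was called in 5 of the 10 and 25.8% of all genes, and a fall of that size, in FOXO4 and CCNG2, in 2 of the 10 and 24.6% of all genes. The libraries did not overlap for 9 of the 10, as for 87.3% of all genes. The median of the 10 was 0.85, against 0.00 for all genes. Set beside the values for RPMI-8226, PIK3IP1 and FBXO32 in the resistant line lay within 1.21-fold of the libraries labelled NCI-BL2171, CCNG2 and FOXO4 lay below both other groups, and KLF2, FOXO3, TXNIP and CDKN1B lay between them.

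The order of the genes by length-scaled level also shifted. In RPMI-8226 TXNIP led at 157 ± 0.970 TPM, followed by CITED2 at 140.2 ± 0.710 and KLF2 at 70.1 ± 1.68 TPM, and FOXO1 was last at 2.13 ± 0.0566 TPM (SD, n = 2). In RPMI-8226-R CITED2 led at 196 ± 7.53 TPM before TXNIP at 136 ± 32.4 TPM, and FBXO32 was last at 0.991 ± 0.0679 TPM. In the libraries labelled NCI-BL2171 CITED2 (86.6 ± 4.39 TPM) and TXNIP (77.6 ± 6.15 TPM) led as well, and KLF2 was last at 0.216 ± 0.134 TPM. No neighbours in these orders overlapped in the myeloma lines. Among the libraries labelled NCI-BL2171, FOXO3 (5.56 and 6.16 TPM) overlapped with PIK3IP1 (4.93 and 5.69), and FBXO32 (0.848 and 1.77) with FOXO1 (0.805 and 0.929).

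Scaling bears on the small differences. On log2(TPM + 1) and log2(TPM + 0.1) the median of all genes in RPMI-8226-R against RPMI-8226 moved up by 0.20 and 0.24, and the share of calls that were rises went from 43.4% to 60.7% and 59.8%. On these scales 6 and 5 of the 10 genes were called as lower, and 1 as higher. Relative to the median of all genes, FBXO32 was at -3.81 in the count-based test and -2.65 on log2(TPM + 1), PIK3IP1 at -3.16 and -2.80, CCNG2 at -2.79 and -2.30, and FOXO3 at -1.34 and -1.12. KLF2 was at -1.10 and -0.88, FOXO4 at -0.88 and -0.51, TXNIP at -0.49 and -0.31 and CDKN1B at -0.29 and -0.13. These 8 lay below the median of all genes on every one of the 3 scales, CITED2 above it, and FOXO1 changed side, at -0.04 and 0.07. The plot of settings shows the same values without that correction.

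**Figure D4:**
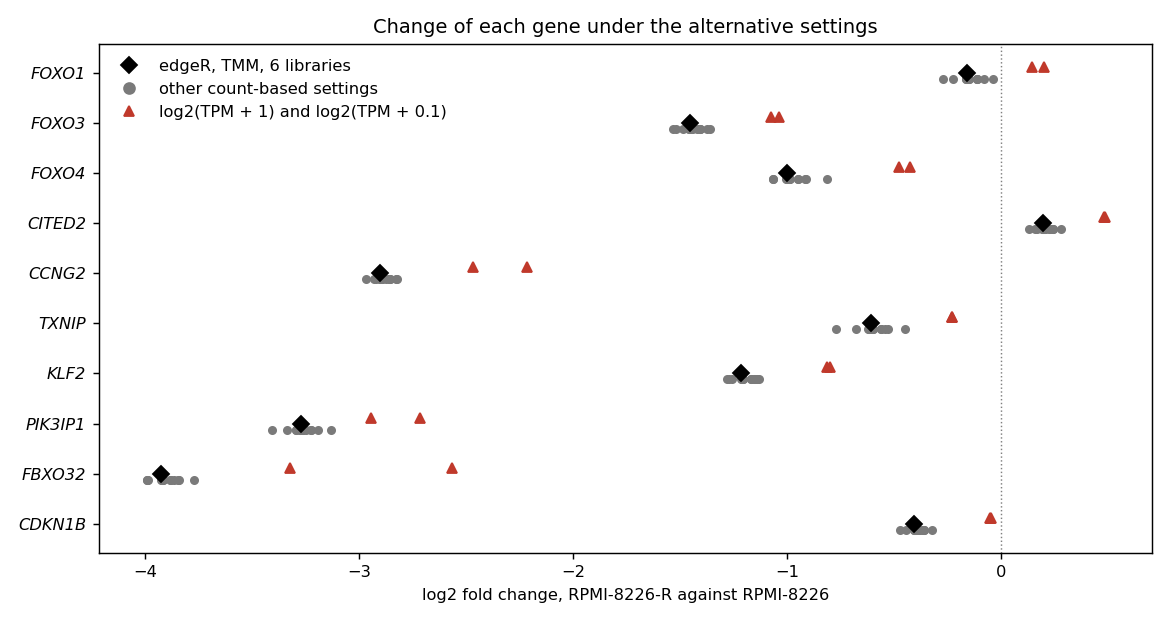
The log2 fold change of each gene in RPMI-8226-R against RPMI-8226 under the edgeR test (diamonds), the other count-based settings (grey) and the TPM scales (triangles). The TPM values lie to the right of the count-based ones for all 10 genes, and FOXO1 crosses 0, from -0.16 to 0.14 and 0.20.

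The rest of the pathway was read from 6 lists of related genes. The shares of all genes to set beside their counts in RPMI-8226-R against RPMI-8226 are 28.5% higher and 37.2% lower. The list of kinases holds those that phosphorylate FOXO factors and PDPK1, which acts upstream of some of them. Of 17 tested, 8 rose, 4 fell and 5 did not pass in RPMI-8226-R against RPMI-8226. The median of the 17 was 0.11, against -0.12 for all genes. PDPK1, which activates AKT and SGK kinases, went from 36.1 ± 0.388 to 75.1 ± 9.39 CPM (2.08-fold), IKBKB rose 1.88-fold and SGK3 1.80-fold, from 8.52 ± 0.417 to 15.4 ± 0.169 CPM. AKT2 rose 1.48-fold and AKT1 1.28-fold. SGK1 fell 64.7-fold, the kinase STK3 1.57-fold and CDK2 1.47-fold, so that SGK1 and SGK3 went in opposite directions.

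The 14-3-3 proteins and the nuclear export machinery hold FOXO proteins in the cytoplasm. Of these 9 genes 7 rose and 2 fell, with a median of 0.38. SFN, an epithelial 14-3-3 protein, went from 23.1 ± 0.674 to 56.8 ± 0.345 CPM and stood at 0.537 ± 0.019 CPM in the libraries labelled NCI-BL2171. The exportin XPO1 rose 1.54-fold and RAN, the GTPase that drives it, 1.45-fold. YWHAG and YWHAE, which are 14-3-3 genes, fell by 1.18-fold and 1.12-fold, and neither was called as lower on the TPM scales.

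Enzymes and coactivators that modify FOXO proteins mostly rose, with 10 of 14 higher, 2 lower and 2 not passing (median 0.65). The acetyltransferases CREBBP and EP300, which are also the partners of CITED2, went from 30.2 ± 0.604 to 83.9 ± 7.65 CPM and from 31.5 ± 1.01 to 86.0 ± 9.70 CPM. SKP2, the F-box protein that marks p27 and FOXO1 for degradation, rose 2.36-fold. CTNNB1 and the deacetylase SIRT1 fell by 1.41-fold and 1.2-fold, neither of which was called as lower on the TPM scales.

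Other genes known to be induced by FOXO factors were mostly lower in RPMI-8226-R. Of 37 listed, 36 were matched and 31 tested, and 23 fell, 2 rose and 6 did not pass, with a median of -1.47 against -0.12 for all genes (-1.42 with genes lacking reads in a line set to a floor of 3 counts per library). On the TPM scales 18 and 19 fell and 3 rose. GABARAPL1, an autophagy protein, fell 18.1-fold, from 22.4 ± 0.564 to 1.23 ± 0.321 CPM. BNIP3, a mitophagy receptor, went from 91.3 ± 5.50 to 11.8 ± 0.899 CPM and BTG1, an antiproliferative factor, from 139.8 ± 15.7 to 19.8 ± 0.742 CPM. The 2 that rose, named after their values were seen, were RAG1, at a log2 fold change of 1.29, and ERBB3, at 0.98. Both were low, under the 5 TPM asked of other named list genes. From RPMI-8226 to RPMI-8226-R, RAG1 went from 0.190 to 0.316 TPM and ERBB3 from 1.26 to 2.26 TPM. This list and the 10 genes were drawn from the same earlier knowledge of these data, so that its direction is not independent support.

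**Figure D5:**
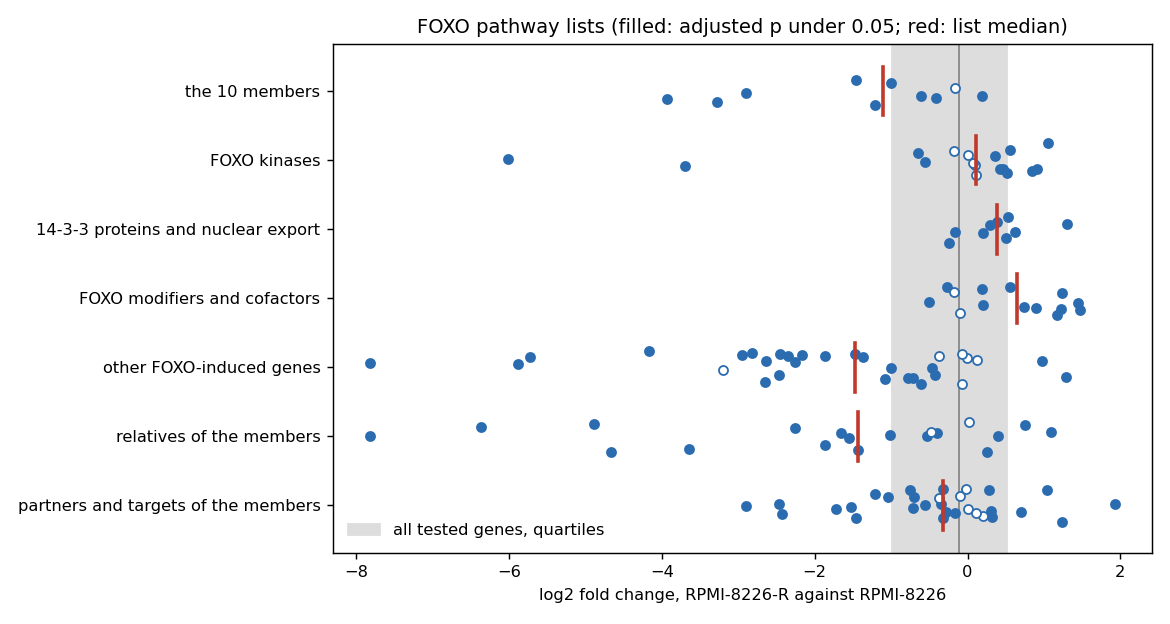
The log2 fold change of every tested gene of the 10 and of the 6 related lists in RPMI-8226-R against RPMI-8226, filled where the edgeR adjusted p was under 0.05, with the list median in red and the quartiles of all tested genes (-0.98 and 0.51) shaded. The medians of the induced genes, at -1.47, of the relatives, at -1.43, and of the 10, at -1.11, lie left of the shaded range.

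Of 19 relatives of the 10 genes 13 fell, 4 rose and 2 did not pass, and 3 of the 13, CDKN1A, KLF6 and TRIM63, are also counted among the induced genes. Their median was -1.43, but -0.53 once 4 genes with no read in a line were set to the floor or, where both lines were under it, left out. The CDK inhibitor CDKN1C, a paralogue of CDKN1B, fell from 449 ± 3.91 to 35.6 ± 6.23 CPM, a 12.6-fold change beside the 1.33-fold change of CDKN1B, and CDKN1A fell 4.77-fold, from 140.1 ± 1.41 to 29.3 ± 0.634 CPM. KLF6 fell 3.65-fold, whereas KLF13 rose 1.68-fold. FBXO25, the closest relative of FBXO32, rose 1.32-fold while FBXO32 fell. Among the arrestins listed as relatives of TXNIP, only ARRDC1 rose, by 1.19-fold. ARRDC2 fell 2.03-fold and ARRDC3 2.94-fold, from 175 to 59.5 CPM, the direction of TXNIP itself. ARRDC4 was called as lower too, but had only 0.112 CPM in RPMI-8226 and 0 in RPMI-8226-R.

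Partners and targets of the 10 were split, with 17 of 30 lower, 7 higher and 6 not passing (median -0.32). On the TPM scales 12 and 11 were called as lower, beside 22.7% and 23.0% of all genes. CUL1, the scaffold of the SCF ligases to which FBXO32 and SKP2 belong, went from 46.4 ± 0.573 to 177 ± 2.08 CPM (3.82-fold), and CDK4 rose 2.06-fold. PIK3CD, a catalytic subunit of PI3K, fell 7.49-fold. TFAP2C, a partner of CITED2, fell 5.37-fold, from 18.5 to 3.45 CPM.

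Against the libraries labelled NCI-BL2171 the other induced genes and the kinases were counted too. In RPMI-8226, 14 of the 31 other induced genes rose, 10 fell and 7 did not pass (median 0.22, against 0.09 for all genes). Of 17 kinases 6 rose and 10 fell. Of all genes 41.1% rose and 35.6% fell in this comparison. CXCR4, a homing receptor, stood at 310.4 ± 13.2 CPM in RPMI-8226, 112 ± 6.93 in RPMI-8226-R and 0.380 ± 0.138 in the libraries labelled NCI-BL2171. SESN3, a stress-induced regulator of mTOR, was 4.84-fold lower in RPMI-8226 than in those libraries, and the death ligand TNFSF10 20.1-fold higher. In RPMI-8226-R, 7 of the 31 rose, 19 fell and 5 did not pass (median -0.90, against 0.00 for all genes). Here 39.2% of all genes rose and 38.2% fell. GABARAPL1 was 58.3-fold lower, at 1.23 against 72.3 CPM, and BCL6, a transcriptional repressor of germinal centre B cells, 59.2-fold lower. In the count-based test INSR, the insulin receptor, was 6.81-fold higher and the death factor BCL2L11 4.52-fold higher. Per length both rises were smaller. INSR had 5.01 TPM in RPMI-8226-R against 1.58 TPM in the libraries labelled NCI-BL2171, and BCL2L11 23.2 against 14.4 TPM. KLF1, the erythroid member of the KLF family, had 49.3 ± 5.88 CPM in the libraries labelled NCI-BL2171 and 0.0791 ± 0.112 in RPMI-8226, the reverse of KLF2. KLF1 is itself among the erythroid markers summed above, so its direction is not a separate observation.

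Genes that lie beside the 10 on the chromosomes were counted as well. Taking the 5 nearest tested protein-coding genes on each side, the medians in RPMI-8226-R against RPMI-8226 ran from -0.35 for the neighbours of TXNIP to 0.45 for those of FOXO1. Around FBXO32 6 of 10 neighbours rose and 3 fell (median 0.30), around PIK3IP1 4 rose and 4 fell (0.05), and around CCNG2 3 rose and 5 fell (-0.11). For FOXO3 1 of the 10 neighbours rose and 5 fell, with a median of -0.28. Genes that overlap any of the 10 in the annotation carried at most 17 reads in a library.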

How the data were processed

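Per the labels, untreated cells of 3 lines gave total RNA that was depleted of ribosomal RNA and sequenced in 2 libraries each. The authors deposited estimated counts of reads per gene, which need not be whole and were rounded here. TPM values, deposited by the authors beside them, rest on those estimates. The deposited lengths and effective lengths, another unit, are in bases and served for an offset. Per the submitters' processing notes the build was GRCh38.p13. The quantifier, with its annotation and strand setting, was not given in the sources used here, so that reads of overlapping or near-identical genes may be divided in ways that were not checked.

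Of 61544 rows, 46 were pseudoautosomal Y copies and were added to their X partners, leaving 61498 genes. Positions came from GENCODE 29. Totals were 23952370 to 29052199 estimated reads per library, and replicate libraries differed by a chi-square of 3.47 to 11.0 per gene, so that none was a copy of another. Counting error sets the precision of low genes such as KLF2 and FBXO32.

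The test was edgeR 4.0.16 (R 4.3.3): TMM, filterByExpr by line with a minimum count of 10 and a minimum total of 15, and a two-sided, robust quasi-likelihood F test fitted to the 6 libraries together (3 residual degrees of freedom), with Benjamini-Hochberg adjustment over 20081 genes at 0.05. The biological coefficient of variation was 6.81%. The procedure was tested on simulated data. The 16 alternatives included the edgeR test with size factors of the DESeq2 type or upper quartile scaling, and the Wald test of DESeq2 1.42.0. Others used limma 3.58.1 (voom, and trend on log2(TPM + 1) and log2(TPM + 0.1)). The rest were the edgeR test with no filter, an effective-length offset, only the 4 libraries compared, a replicate block, or each of 6 libraries left out. A fold change on a log2(TPM + pseudocount) scale understates changes of low genes. The 10 genes, the lists and the motifs were chosen with earlier results of these data known. List genes named are up to 3 rises and 3 falls per list whose higher line reached 5 TPM and whose lines did not overlap, and AKT1, AKT2, SGK1, SGK3, FOXO3B and FOXO6 whatever their values. ARRDC2, ARRDC3, ARRDC4, RAG1 and ERBB3 were named after their values were seen. Some genes that the rule takes are left out of the text. Promoter sequences are from RefSeq (GRCh38.p14).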

Additional observations from a re-analysis of the deposited data

How the results depend on the processing

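Over 16 alternatives and 3 comparisons, 460 of 480 log2 fold changes of the 10 genes kept their direction and their side of the threshold, 17 kept the direction but no longer passed, and 3 changed sign. Between the resistant line and its parent the count of genes that rose went from 1 to 0 with upper quartile scaling, with an effective-length offset and without RPMI-8226 replicate 1, each time by loss of CITED2, and leaving out single libraries gave 0 to 1. The count that fell was 5 on log2(TPM + 0.1) and 6 on log2(TPM + 1), where TXNIP and CDKN1B, and on the former KLF2, no longer passed. The sign changes were those of FOXO1 between the same lines, 0.14 on log2(TPM + 1) and 0.20 on log2(TPM + 0.1), and of FBXO32 in RPMI-8226-R against the libraries labelled NCI-BL2171, 0.0029 without NCI-BL2171 replicate 1 (range without single libraries -0.19 to 0.0029). None of these passed the test, and the cause was not tested. In that comparison leaving out single libraries gave 2 to 3 genes that fell, and PIK3IP1 ranged from -0.41 to -0.14 over the alternatives. The replicate block left 1 rise and 8 falls between resistant line and parent and changed no call of the 10 genes. Deviations of same-numbered libraries correlated across genes at 0.0280 to 0.0443, so the numbers were not taken to pair the samples. For the 6 lists, 541 counts stayed within 1.5 times and 35 did not. The forkhead count of 3 genes was 5 with TAAACA and 0 with CAAAACA. With 2 libraries per line, depth limits FBXO32 and, in the libraries labelled NCI-BL2171, KLF2.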
